A study of Ambystoma mexicanum with 6 samples.

Results

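The regions described are the accessible sites on chromosome 5 of the axolotl (Ambystoma mexicanum), measured by ATAC-seq in limb cells. They were found by taking every peak on arms 5p and 5q from the 6 lists of peaks deposited by the authors and joining peaks that overlapped by at least 1 bp into sites. This gave 272 sites of 3529 in the whole series, made of 500 peaks. The members were chosen by the authors' peak calls, so the number of sites and the libraries that hold them are given as a description. The 2 loosest joined peaks overlapped by 29 bp, and the closest sites kept apart lay 48 bp from each other.

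Each of 3 groups had 2 libraries, made from 10000 live cells in a sort that kept those with 4C DNA. The systemically activated group (replicates 4 and 5) came from limb tissue 14 days after an amputation. The blastema group (replicates 1 and 2) came from blastema together with its wound epidermis, and the labels give no day for it. The intact group (replicates 1 and 2) came from limb tissue at homeostasis. All animals were wild type, the labels do not say how many animals went into a library or whether replicates came from separate animals, and the statistics therefore measure only the spread between these libraries. No marker of the tissue could be checked, since the lists hold positions and no gene was assigned to them.

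ATAC-seq uses the transposase Tn5, which inserts sequencing adapters where DNA is not wrapped tightly in chromatin, so peaks mark promoters, enhancers and other open elements. A 4C content is that of a cell that has copied its genome and has not yet divided. Systemic activation is the entry of cells into the cell cycle in tissue away from an amputated limb, and the blastema is the mass of dividing progenitors, covered by wound epidermis, from which the new limb grows. Neighbouring strong sites within a short stretch are a common arrangement at genes with several regulatory elements.

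The lists held between 248 and 2962 peaks, and their read depth is unknown. On chromosome 5 there were 108 peaks in systemically activated 4 and 231 in systemically activated 5, while blastema 1 had 34 and blastema 2 had 38, and intact 1 had 42 and intact 2 had 47. Both systemically activated libraries had more peaks on the chromosome than any other library. Peaks are described by the authors' signal value, treated here as the area of the peak, and by the −log10 q at the summit. Area and −log10 q are on a scale of the library in which the peak was called, so levels of different libraries are not directly comparable.

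Sites were spread unevenly along the arms. The lists name 3 segments for each arm, numbered from 0, and positions are counted from 1 within a segment. Per 100 Mb there were 18.0 sites on 5p segment 0, 8.20 on 5p segment 1 and 7.26 on 5p segment 2, followed by 8.40, 8.41 and 13.8 on segments 0, 1 and 2 of 5q. The length of segment 2 of either arm was taken up to the last peak in any list, so its density is an upper value. Over the whole chromosome there were 10.7 sites per 100 Mb, against 13.0 over all 14 chromosomes, and chromosome 5 stood at rank 11 of the 14. It stood at rank 2 for the number of sites held by all 6 libraries, with 21, and at rank 4 for their density, with 0.824 per 100 Mb.

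Dense segments and widely held sites did not coincide. Of the 77 sites on 5p segment 0, 73 (94.8%) had a peak only in systemically activated libraries, and 0 were held by every group. The other 4 were held by intact 2 together with 1 or both systemically activated libraries. Both blastema lists and intact 1 thus had no peak on this segment. Of the 77 sites, 53 had a peak in 1 library, and 20 were held by both systemically activated libraries and no other. The segment had 70 peaks in systemically activated 5, the longest list, and 29 in systemically activated 4. On 5q segment 0, by contrast, 19 of 36 sites (52.8%) were held only by systemically activated libraries, and 15 had a peak in at least 1 library of each group. Thus 13 of the 21 sites found in all 6 libraries lay on 5q segment 0, 7 on 5p segment 1 and 1 on 5q segment 1. The remaining segments, 5p segments 0 and 2 and 5q segment 2, had 0 such sites.

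**Figure D1:**
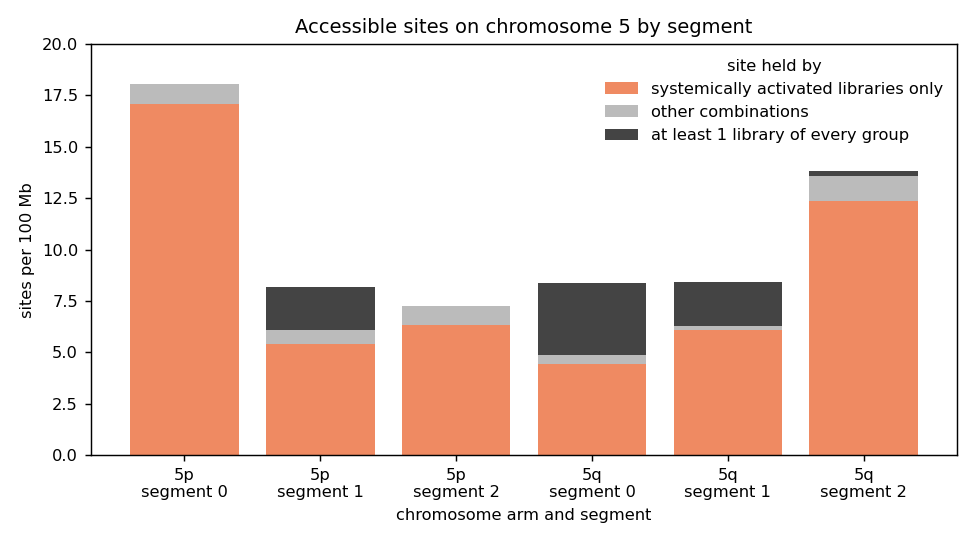
Sites per 100 Mb (y axis) on the 6 segments of chromosome 5 (x axis), stacked by which groups hold a site. Segment 0 of 5p is the densest, at 18.0 sites per 100 Mb, and is made almost wholly of sites held only by systemically activated libraries. Of its 77 sites, 53 have a peak in 1 library. Sites held by every group are most frequent on 5q segment 0.

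In windows of 10 Mb, 106 of 257 windows held a site and 42 of these held a single site. The densest window was 50 to 60 Mb of 5q segment 0, with 16 sites, 12 of them in all 6 libraries. The number of sites there was 14 and 15 in systemically activated libraries, 15 and 14 in blastema libraries and 14 in each intact library. The next was 220 to 230 Mb of 5p segment 1, with 10 sites, of which 4 were in all 6 libraries. The third was 10 to 20 Mb of 5p segment 0, with 9 sites, of which 8 were held only by systemically activated libraries. The first of these windows was thus filled about equally by all libraries, while the last had a site in systemically activated 5 at 9 positions, in systemically activated 4 at 3 and in intact 2 at 1.

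By the number of libraries, 188 of the 272 sites (69.1%) had a peak in 1 library, 46 in 2, 4 in 3, 3 in 4, 10 in 5 and 21 (7.72%) in all 6. On all other sequences 69.9% of 3257 sites had a peak in 1 library and 4.11% in all 6. By group, 219 sites (80.5%) were held only by systemically activated libraries, 34 (12.5%) by all 3 groups, 8 by systemically activated and intact, 6 by intact only, 3 by systemically activated and blastema, 1 by blastema only and 1 by blastema and intact. Off chromosome 5 the corresponding shares for systemically activated only and for all 3 groups were 84.5% and 5.77%. These shares were not tested, because neighbouring sites are not independent. The total rests on the longest list: without systemically activated 5 there were 122 sites in all, of which 23 were in every remaining library.

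Sites held by all 6 libraries were broader and closer together than the rest. Their width was 593 bp at the median (330 to 5061 bp), against 283 bp for sites in 2 to 5 libraries and 176.5 bp for sites in 1 library. A site is the span of its joined peaks, so its width grows in part with the number of libraries. Single peaks of these sites were 430 and 553 bp at the median in systemically activated 4 and 5. At sites held by that library alone they were 118 and 193 bp. A class that needs a call in all 6 lists favours broad, strong peaks, so these widths are a description. Of the 21, 17 lay within 100 kb of another such site (81.0%), compared with 80 of 134 (59.7%) on all other sequences. A single cluster, from 58602429 to 58687642 of 5q segment 0, held 11 of the 17. On chromosome 5, 42.9% of sites in 2 to 5 libraries and 29.3% of sites in 1 library lay within 100 kb of another of their own class. Summits of the 6 libraries fell within 100 bp of each other at 14 of the 21 sites, with a median spread of 48.0 bp. The largest spreads, 3355 bp and 2167 bp, were at the broadest pair of sites, which are several kilobases wide.

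The site of the largest area lay on 5q segment 0 from 57768606 to 57773666, a stretch of 5061 bp. Its area was 17617 and 15642 in systemically activated 4 and 5, 23864 and 26228 in blastema 1 and 2, and 19759 and 20423 in intact 1 and 2. Among the 155 sites of the series found in all 6 libraries it had rank 1 by area in every library. By itself it held 5.12% and 3.93% of the summed area of the systemically activated lists, 7.88% and 8.67% of the blastema lists, and 6.06% and 6.96% of the intact lists. Each library called it as a single peak, whose width ranged from 5017 bp in intact 1 to 5058 bp in systemically activated 4. The edges were nearly alike, with starts from 57768606 to 57768640 and ends from 57773656 to 57773666.

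The summit within this broad peak was not placed alike everywhere. It lay 3162 and 3169 bp after the start of the site in systemically activated 4 and 5, 3167 bp after it in blastema 1, and 3167 bp after it in intact 2. In blastema 2 it lay at 845 bp and in intact 1 at 4200 bp. Thus 4 libraries placed the summit at nearly the same base, and 1 library each of the blastema and intact groups placed it elsewhere within the peak. The height at the summit, as −log10 q, was 6.24 and 6.03 in systemically activated libraries, 7.06 and 6.91 in blastema libraries and 6.63 and 6.68 in intact libraries. By this height it was not the first. The narrower site at 58646872 had 7.21 in systemically activated 4, 7.34 in blastema 1, and 7.40 and 7.26 in intact 1 and 2. In systemically activated 5 and in blastema 2 the −log10 q of both sites was equal, at 6.03 and 6.91. The sites at 58623481 and 58644668 had the same values there. These were the highest among the chromosome 5 sites of all 6 libraries, so −log10 q did not rank these sites in those lists. The −log10 p at the summit was higher at the narrower site than at the broad site in both lists. It was 12.72 against 12.63 in systemically activated 5 and 13.48 against 13.43 in blastema 2. The site at 58644668 had 13.51 in blastema 2. In systemically activated 4 the sites at 58623481 and 58644668 also had a −log10 q above the broad site, 6.26 and 6.60.

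The second concentration lay less than 1 Mb further along, where 14 sites occupied the stretch from 58601860 to 58687642. Of these, 11 were held by all 6 libraries and 2 by 5 libraries. The 13 sites held by every group formed a cluster of 85.2 kb from 58602429 to 58687642. By the same rule (at least 3 sites held by every group, neighbours at most 100 kb apart), 24 clusters were found in the whole series, 4 of them on chromosome 5, and the next largest off this chromosome had 6 sites. The rule was set after the positions had been seen. Summed over the cluster, the area was 23533 and 21935 in systemically activated libraries, 27302 and 28223 in blastema libraries, and 26606 and 21511 in the intact libraries. These sums, not adjusted for the scale of each library, overlapped only between systemically activated and intact.

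Within the cluster the largest site was from 58675102 to 58679233 (4132 bp), with areas of 10570 and 9447 in systemically activated libraries, 12080 and 12375 in blastema libraries, and 12533 and 9097 in intact libraries. It ranked between 3 and 5 of the 155 shared sites in each library. The next, from 58646872 to 58648467 (1596 bp), had areas of 5122 and 4920 in systemically activated libraries, 5762 and 5879 in blastema libraries, and 5503 and 5015 in intact libraries. Its rank was between 10 and 12. In areas not adjusted for the scale of each library, both blastema libraries were highest at this site and intact 1 at the larger site. This order changed with the centring on each library's median described below. In centred log2 area, systemically activated 5 was highest at this site (2.80). At the larger site blastema 2 was highest (3.84) and intact 1 had 3.50.

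The sites around these were lower. The sites from 58686523 to 58687642 (1120 bp), from 58644668 to 58645684 (1017 bp) and from 58623481 to 58624073 (593 bp) had areas between 1267 and 2091 in all libraries. A site of 647 bp at 58602429 ranged from 695 in systemically activated 5 to 1712 in intact 1, and a site of 374 bp at 58644032 from 721 in intact 1 to 939 in systemically activated 4. The areas at these 5 sites spanned less than 3-fold between libraries.

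The remaining 4 sites of the cluster held by all libraries were lower still. The site from 58606736 to 58607206 (471 bp) had an area of 320 and 218 in systemically activated libraries, 135 and 159 in blastema libraries, and 71.6 and 68.5 in the intact libraries. Here the 3 groups did not overlap, with systemically activated highest and intact lowest. The site from 58652968 to 58653496 (529 bp) had 344 and 221 in systemically activated, 494 and 619 in blastema, and 375 and 268 in intact libraries. The site from 58673291 to 58674009 (719 bp) had 309 and 459 in systemically activated, 354 and 623 in blastema, and 413 and 83.8 in intact libraries. The low value of intact 2 at this last site set it apart from the other 5 libraries. The site from 58604458 to 58604841 (384 bp) lay between 233 in intact 1 and 452 in blastema 1.

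The remaining 3 sites of the stretch lacked a peak in some library. The site from 58604084 to 58604196 (113 bp) had an area of 29.5 and 44.5 in systemically activated libraries, 30.6 and 95.7 in blastema libraries and 69.2 in intact 2, with no peak in intact 1. The site from 58641812 to 58642088 (277 bp) had 61.9 and 31.7 in systemically activated libraries, 47.6 in blastema 1, and 136 and 43.96 in intact libraries, with no peak in blastema 2. The site from 58601860 to 58602192 (333 bp), directly before the cluster, had 150 in blastema 1, 47.5 in blastema 2 and 89.7 in intact 1. It was held by both blastema libraries and by neither systemically activated library. No list held an area under 20, so a site listed as lacking in a library may lie below that limit there. Apart from these and the site of the largest area, the window from 57 to 59 Mb held 1 further site, of 100 bp at 57332701, in systemically activated 5 only.

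**Figure D2:**
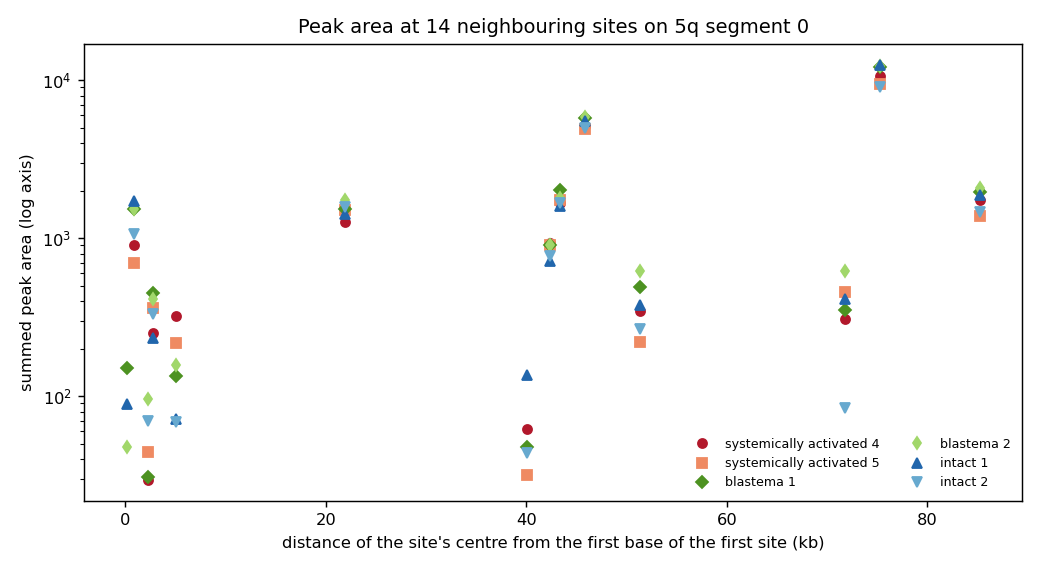
Summed peak area (y axis, log scale) of the 14 neighbouring sites on 5q segment 0 against the distance of each site's centre from the first base of the first site (x axis, kb), with a symbol for each library. The site at 58675102 is the tallest in each of the 6 libraries, between 9097 and 12533, and the site at 58646872 is next. The order of the lower sites differs between libraries, and the libraries spread more at the low sites than at the tall ones.

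The window from 57 to 59 Mb held a large part of the summed area of the called peaks. It took 11.96% and 9.45% of the summed area of the lists in systemically activated libraries, 16.9% and 18.0% in blastema libraries, and 14.25% and 14.29% in the intact libraries, on a covered length of 15.99 and 16.04 kb in systemically activated, 15.8 and 14.7 kb in blastema, and 14.6 and 13.8 kb in intact libraries. The groups did not overlap in this share. As means ± SD (n = 2 each), systemically activated libraries had 10.7% ± 1.77, blastema libraries 17.5% ± 0.763 and intact libraries 14.3% ± 0.0287. Each of the 3 pairs of groups gave p = 0.333 (exact permutation, 2-sided), which is the smallest of the 6 possible groupings of 4 libraries and cannot pass 0.05. The window was chosen with these data known, so the comparison is a description. The systemically activated lists, with the lowest shares, were also the longest, and the part of list length in this result was not tested.

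Of the other clusters, the one on 5p segment 1 from 229178820 to 229190727 (11.9 kb) had 4 sites, all held by every library. Summed areas were 1958 and 2792 in systemically activated, 2778 and 4137 in blastema, and 3095 and 1946 in intact libraries. The 3 groups overlapped. At the last site, from 229189719 to 229190727 (1009 bp), systemically activated 4 had an area of 241 and systemically activated 5 one of 1059, while blastema libraries had 941 and 1546 and intact libraries 1281 and 833. A smaller cluster on 5p segment 1 from 424129506 to 424147186 (17.7 kb) had 3 sites, of which 2 were in all 6 libraries and the third was lacking only in systemically activated 5. Its first site (330 bp) had areas of 654 and 727 in systemically activated, 716 and 754 in blastema, and 475 and 535 in intact libraries. The second site (590 bp), at 424145033, had 761 and 254 in systemically activated, 470 and 474 in blastema, and 246 and 277 in intact libraries.

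The cluster on 5q segment 1 from 65490100 to 65574254 (84.2 kb) had 7 sites, and none was in all 6 libraries. Blastema 2 and intact 1 held all 7, systemically activated 4 and 5 held 6 each, intact 2 held 5 and blastema 1 held 1. The summed area was 840 and 564 in systemically activated libraries, 419 and 1222 in blastema libraries, and 2048 and 514 in intact libraries. The replicates of the blastema group therefore differed here more than at the other 3 clusters, both in the number of sites and in the ratio of areas. The same held for the intact replicates, whose ratio of areas here was larger than that of the blastema replicates. The site with the highest single area of the cluster, from 65556727 to 65557126 (400 bp), had areas of 293 and 160 in systemically activated libraries, 273 in blastema 2, and 874 and 55.8 in intact libraries, with no peak in blastema 1. The single site that blastema 1 held, from 65558504 to 65558891, had its highest area there, 419, against 69.5 in blastema 2. Over the whole series 12 sites were held by every library except blastema 1, and 4 of them lay on chromosome 5, all in this cluster.

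**Figure D3:**
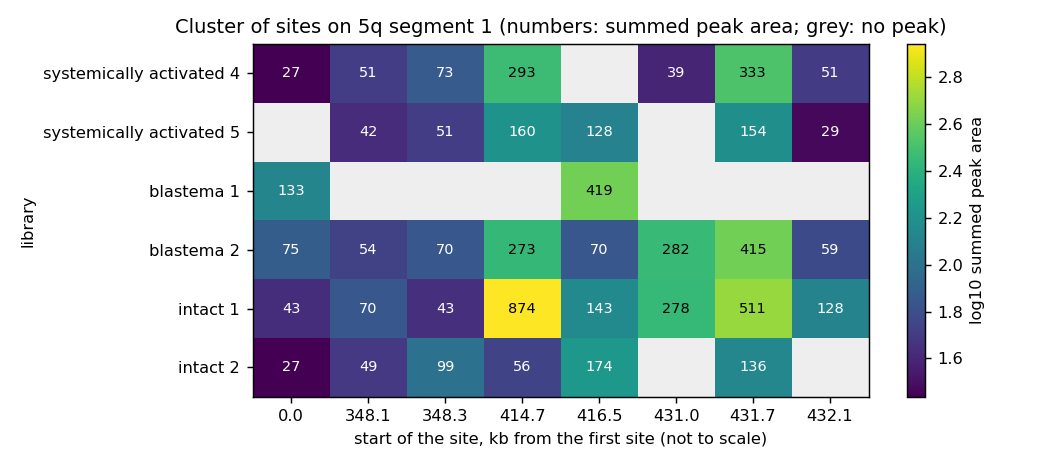
Summed peak area of each library (rows) at the 7 sites of the cluster on 5q segment 1 and at 1 site before it (columns, labelled by the start in kb from that site). Colour gives log10 area, numbers give the area and grey marks the absence of a peak; blastema 1 has a peak at 1 of the 7 cluster sites, blastema 2 and intact 1 at all 7.

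Single sites outside the clusters were also compared. On 5p segment 1, the site from 250835253 to 250835654 (402 bp) had areas of 263 and 452 in systemically activated libraries, 117 and 56.98 in blastema libraries, and 440 and 553 in intact libraries. Blastema libraries had the lowest values, and the site was held by all libraries. The next site held by every group along the arm, from 252437768 to 252438411 (644 bp), had 408 and 365 in systemically activated libraries, 79.5 in blastema 1 with no peak in blastema 2, and 406 and 398 in intact libraries. On 5q segment 0, the site from 20426970 to 20427885 (916 bp) had 209 and 300 in systemically activated, 1023 and 1240 in blastema, and 681 and 463 in intact libraries. On 5q segment 1, the site from 381995807 to 381997317 (1511 bp) had 812 and 707 in systemically activated, 1694 and 1757 in blastema, and 1133 and 694 in intact libraries. Both 5q sites were highest in the blastema libraries.

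To compare groups at sites measured everywhere, log2 areas at the 155 sites found in all 6 libraries were centred on the median of each library and fitted with limma, with Benjamini-Hochberg adjustment over the 155. Of the chromosome 5 sites, 21 of 272 entered. Rank correlations of area over these 21 sites (Spearman's rho, a description over neighbouring sites that share libraries) were 0.732 between systemically activated replicates, 0.969 between blastema replicates and 0.927 between intact replicates. Between libraries of different groups rho ranged from 0.726 to 0.944. The 5 pairs that included systemically activated 4 had the lowest values, up to 0.764.

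In systemically activated against intact libraries, 1 of the 21 sites passed an adjusted p of 0.05, and it was higher in systemically activated libraries. Over all 155 sites 1.29% were called higher and 1.94% lower. This was the site of 471 bp at 58606736 in the large cluster, with a log2 difference of 2.28 (SE 0.220, a 4.87-fold difference, limma adjusted p = 0.0165) and both systemically activated libraries above both intact libraries. Its adjusted p was 0.0957 with quantile normalization and 0.0694 without centring, 0.0716 to 0.102 when 1 library was left out (whichever of the 4 it was), and 0.00865 with the summit −log10 p in place of area. The log2 difference in area was 1.75 with quantile normalization, 1.92 without centring and 2.16 to 2.40 with 1 library left out. The call was thus lost under these settings while the direction and most of the size in area remained. In log2 summit −log10 p, which is another scale, the difference was 0.35. Peaks at this site covered 471 and 357 bp in systemically activated 4 and 5 and 98 bp in each intact library, so the areas differed in width too. At an unadjusted limma p under 0.05 there were 4 of 21 sites (19%) and 36 of 155 (23.2%). Centred areas did not overlap at 11 of the 21 sites, 9 higher and 2 lower in systemically activated libraries, beside 41.3% higher and 21.3% lower over all 155. They numbered 6 without centring, 3 in each direction, where 83 of all 155 did not overlap, and 18 without systemically activated 4, where 132 did not. With centring and all libraries 97 of the 155 did not. A group left with a single library overlaps less easily, so the rule itself raises the number without systemically activated 4. How much of the rise comes from the rule was not tested. The median log2 difference was 0.27 for the 21 sites and 0.25 for all 155 with centring, and −0.095 and −0.12 without it, so the members' median lay close to that of all shared sites and its sign depended on the scaling.

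In blastema against intact libraries, limma called 0 of the 21 sites (lowest adjusted p = 0.0968) and 0% of the 155 in either direction. At an unadjusted p under 0.05 there were 8 of 21 sites (38.1%) and 37 of 155 (23.9%). Centred areas did not overlap at 19 of the 21 sites, of which 18 were higher in blastema libraries. Over all 155 sites, 43.2% were higher without overlap and 21.3% lower. The median log2 difference was 0.52 for the 21 sites and 0.22 for all 155. Without centring, areas did not overlap at 15 of the 21 (14 higher and 1 lower) and at 97 of the 155. The medians were 0.32 and 0.021. With quantile normalization, areas did not overlap at 16 of the 21 (15 higher and 1 lower) and at 87 of the 155. The medians were 0.49 and 0.088. For all 155 sites the split by direction is not given in these settings. The 21 sites are not independent, since 12 of them lie between 57 and 59 Mb of 5q segment 0.

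Large differences between blastema and intact libraries were seen in both directions. The site at 250835253 of 5p segment 1 had a log2 difference of −2.39 (SE 0.515, limma adjusted p = 0.123), and was the only 1 of the 21 that was lower without overlap in blastema libraries. The sites at 58673291 and 58606736 had differences of 1.54 (SE 0.760, limma adjusted p = 0.266) and 1.27 (SE 0.220, limma adjusted p = 0.0968). The sites at 20426970 of 5q segment 0 and 381995807 of 5q segment 1 had differences of 1.21 (SE 0.340) and 1.16 (SE 0.229), with limma adjusted p of 0.147 and 0.123. At the site of the largest area, at 57768606, the difference was 0.52 (SE 0.213, limma adjusted p = 0.223). None of these passed the threshold.

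In systemically activated against blastema libraries, limma again called 0 of the 21 sites (lowest adjusted p = 0.0850) and 0% of the 155. At an unadjusted p under 0.05 there were 6 of 21 (28.6%) and 35 of 155 (22.6%). Centred areas did not overlap at 10 sites, 3 higher and 7 lower in systemically activated libraries, beside 29.7% and 21.3% of the 155. Without systemically activated 4 they numbered 17 (111 of the 155), and without systemically activated 5 they numbered 19 (123 of the 155), compared with 79 of the 155 when all libraries were used. A group left with a single library overlaps less easily, so the rule itself raises these numbers, and how much of the rises it makes up was not tested. Without centring and with all libraries they numbered 13 (2 higher and 11 lower), beside 86 of the 155 in either direction. The median log2 difference of the 21 sites was −0.15 with all libraries, 0.073 without systemically activated 4 and −0.21 without systemically activated 5. Over all 155 sites it was 0.012, 0.17 and 0.0029. The sign for the 21 sites thus turned without systemically activated 4. The 4 sites with the lowest p, a shared limma adjusted p of 0.0850, follow. The site at 250835253 had a log2 difference of 2.24 (SE 0.515) and the site at 20426970 one of −2.01 (SE 0.340). The sites at 381995807 and 58606736 had −1.02 (SE 0.229) and 1.02 (SE 0.220). The 3 comparisons share libraries, so their values are not independent of each other.

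**Figure D4:**
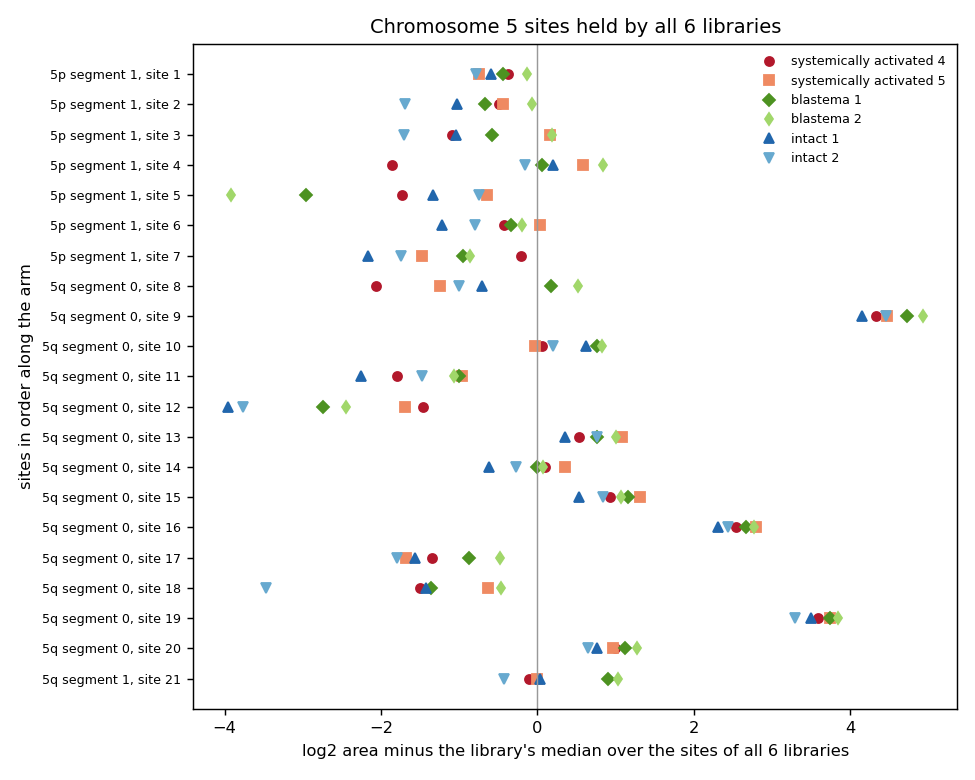
Log2 peak area minus the median of the library over the 155 shared sites (x axis) at the 21 chromosome 5 sites held by all 6 libraries (y axis, in order along the arms), with a symbol for each library. Site 9 is the site of the largest area, above 4 in every library; site 5 is lowest in the blastema libraries; site 12 is the called site, with both systemically activated libraries above both intact libraries.

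Sites that separate groups by the presence of a peak were then counted. A peak in systemically activated 4 and 5 but in no intact library was found at 39 of 271 sites on chromosome 5 (14.4%), against 18.0% of 3519 sites over all sequences, and 0 sites with the opposite arrangement, against 0.483%. The share on chromosome 5 was near that of the whole series. For blastema against intact libraries there was 1 of 53 sites (1.89%) in both blastema libraries only, against 0.896% of all sites, and 0 in both intact libraries only, against 4.48%. For systemically activated against blastema libraries there were 40 of 266 sites (15.0%) in both systemically activated libraries only, against 20.7%, and 1 in both blastema libraries only, against 0.117%. When the −log10 q had to reach 5, the 39 and 40 sites became 0 and 0, and when each list was reduced to its 248 top peaks they became 1 and 1. Without systemically activated 4 they were 192 and 196, and without systemically activated 5 they were 70 and 72. Without 1 of the blastema or intact libraries, 2 or 3 sites were held by blastema libraries only and 3 to 11 by intact libraries only. With a library left out the rule asks for fewer libraries, so these counts rise by the rule itself. The share over all sites is not given for these altered settings. Whether their counts are particular to chromosome 5 was not tested.

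The blastema site that was lacking in both intact libraries lay on 5q segment 2 from 348893938 to 348894208 (271 bp). Its area was 302 and 159 in systemically activated libraries and 265 and 306 in blastema libraries. Its −log10 q was 3.57 and 2.60 in systemically activated and 3.32 and 3.43 in blastema libraries, and the 4 summits lay within 31 bp of each other. It was the only chromosome 5 site held by both libraries of 2 groups and by neither library of the other.

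Among sites held by both systemically activated libraries and by neither intact or neither blastema library, those with the highest median percentile of area in the lists that held them lay mostly on 5p segment 0. The site from 24154859 to 24155219 (361 bp) had an area of 321 in systemically activated 4, 190 in systemically activated 5 and 100 in intact 2, with no peak in the blastema lists. Next came a site from 38185380 to 38186006 (627 bp), with areas of 186 and 148, and a site from 14941552 to 14942255 (704 bp), with 72.1 and 274, both found only in systemically activated libraries. A site from 23612816 to 23613236 (421 bp) had 71.3 and 126, and a site from 170945604 to 170946077 (474 bp) had 191 and 63.3. The site on 5q segment 2 from 36272758 to 36273021 (264 bp) had 107 and 95.2. The site at 14941552 had the largest ratio between the replicates of these 6.

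In all, 38 sites were held by both systemically activated libraries and by no other, 26 on 5p and 12 on 5q. Their median area was 47.4 in systemically activated 4 and 54.3 in systemically activated 5, their −log10 q reached at most 2.71, and their median percentile of area within the lists that held them was 59.8. By comparison, the 21 sites of all 6 libraries had a median area of 654 and 695 per peak in these lists. A call in all 6 lists favours large areas, so this contrast is a description. Only 2 of the 38 lay within 100 kb of a site held by all 6 libraries. A further 150 sites were held by systemically activated 5 alone, with a median area of 35.2 and a median −log10 q of 1.77, and 31 by systemically activated 4 alone, with a median area of 30.8 and a median −log10 q of 1.83. The 6 intact-only sites were each in 1 intact library, 5 in intact 2 and 1 in intact 1, and their areas lay between 22.7 and 118. Whether such sites were closed in the other libraries or open below the call threshold cannot be told apart in lists of peaks.

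The overlap of replicates on chromosome 5 was set beside that off the chromosome. Of the chromosome 5 peaks of systemically activated 4, 66.7% (72 of 108, Wilson 95% interval 57.3 to 74.8) overlapped a peak of systemically activated 5, compared with 67.8% off the chromosome. For blastema 1 in blastema 2 the share was 82.4% (28 of 34, 66.5 to 91.7), compared with 82.7% off the chromosome. For intact 1 in intact 2 it was 85.7% (36 of 42, 72.2 to 93.3), compared with 77.6%. In the other direction, systemically activated 5 in systemically activated 4 had 31.6% on the chromosome and 31.3% off it, and blastema 2 in blastema 1 had 78.9% and 83.2%. Intact 2 in intact 1 had 72.3% on the chromosome (34 of 47, 58.2 to 83.1). This was above the 45.0% off it (196 of 436, 40.3 to 49.6). The intervals cover counting error only and take peaks as independent, which neighbouring peaks are not. Of the 47 intact 2 peaks on the chromosome, 17 lay in the window from 57 to 59 Mb. The intervals therefore cannot test this difference, which was seen in a single pair of libraries.

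Systemically activated libraries had 169.5 ± 87.0 peaks on the chromosome and intact libraries 44.5 ± 3.54 (SD, n = 2 each), a log2 difference of 1.83 and a ratio of 3.56. As a share of the list these were 7.79% ± 0.0165 in systemically activated and 11.8% ± 2.86 in intact libraries, a difference of −3.96 percentage points. Both systemically activated libraries were above both intact libraries in number and below both in share. The difference in share depended on the settings and the libraries: it was 1.07 percentage points when the −log10 q had to reach 5, −0.81 with lists of equal length, −1.94 without intact 1 and −5.98 without intact 2. Each 2-sided exact permutation test gave p = 0.333, the smallest possible, in the full lists.

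Blastema libraries had 36.0 ± 2.83 peaks on chromosome 5 and intact libraries 44.5 ± 3.54 (SD, n = 2 each), a log2 difference of −0.31 (exact permutation p = 0.333, the smallest possible), with both blastema libraries below both intact libraries. As a share of the list they had 14.2% ± 0.721 and 11.8% ± 2.86, a difference of 2.47 percentage points that was smaller than the spread between the intact replicates (exact permutation p = 0.667). This difference was 0.45 without intact 2, 4.49 without intact 1, 5.08 when the −log10 q had to reach 5 and 0.81 with lists of equal length. Systemically activated and blastema libraries differed by 2.14 in log2 number, a ratio of 4.39, and by −6.43 percentage points in share (exact permutation p = 0.333 for each, the smallest possible). This difference in share was −4.01 when the −log10 q had to reach 5 and −1.61 with lists of equal length. The direction of all 3 differences in number turned when lists of equal length were compared (exact permutation p = 0.667 for each), with log2 differences of −0.089, 0.086 and −0.18 for systemically activated minus intact, blastema minus intact and systemically activated minus blastema.

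The share of summed area on the chromosome was 15.0% and 13.4% in systemically activated libraries, 19.5% and 21.4% in blastema libraries and 17.0% and 16.3% in intact libraries. The groups did not overlap (exact permutation p = 0.333 for each pair, the smallest possible). The lowest shares were those of the longest lists, the systemically activated ones, and the part of list length was not tested. The covered length was 38.1 and 67.8 kb in systemically activated, 22.5 and 22.8 kb in blastema, and 22.0 and 21.2 kb in intact libraries. The window from 57 to 59 Mb of 5q segment 0 made up 79.9% and 70.4% of the chromosome's area in systemically activated, 86.8% and 84.3% in blastema, and 83.9% and 87.6% in intact libraries. Most of the area measured on chromosome 5 thus came from 2 Mb of its length in every library.

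**Figure D5:**
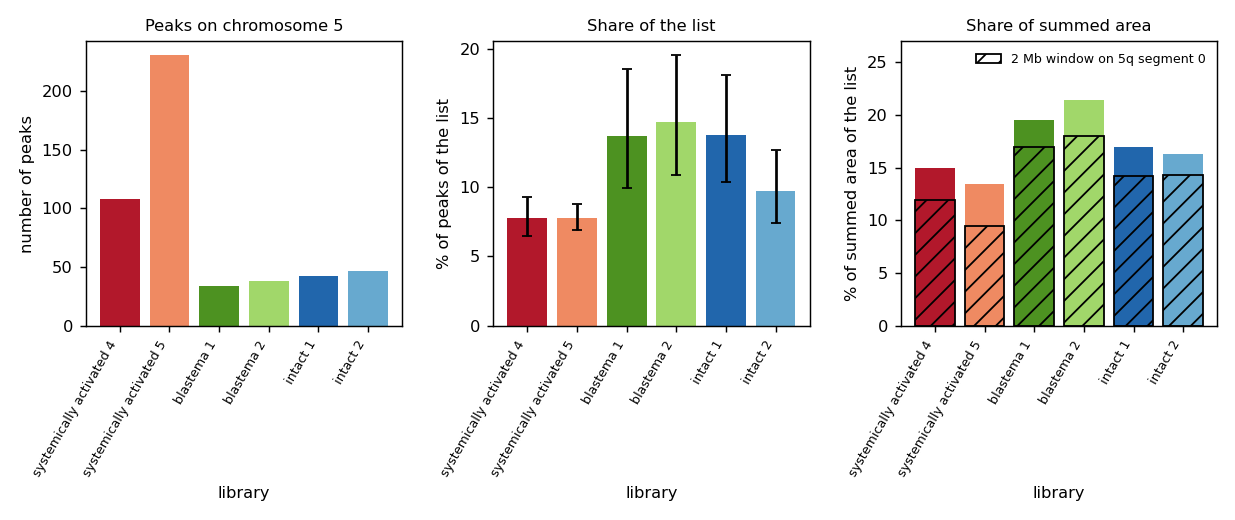
Number of peaks on chromosome 5, their share of all peaks of the list with Wilson 95% intervals, and their share of the summed area of the list (y axes), for each of the 6 libraries (x axes). The hatched part of the right panel is the window from 57 to 59 Mb of 5q segment 0. Systemically activated libraries have the most peaks, the longest lists and the lowest shares, and blastema libraries the highest share of area.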

How the data were processed

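Each library had a deposited list of peaks of its own, in 10 columns without a header. Bowtie2 2.3.2 and Genrich 0.5 (also written 0.5.0) are named per the submitters' processing notes. The genome build, filters, duplicate handling and any Tn5 shift are not given in the sources used here. The deposited signal (column 7) is called area because the deposited score (column 5) equalled signal over width times 1000, capped at 1000, within 1 in all 5645 records. Summit heights are the −log10 p and −log10 q values of the deposited lists, and summit positions come from the deposited offset. In the gene table of the assembly UKY_AmexF1_1, the last gene of arm 3q (end 1308613873) lies before the last peak (end 1525626809), so no gene was assigned and no genome of the lists' build was used here. Read depth is unknown.

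Sites were formed in Python 3.11.15. Numbers and shares were compared by 2-sided exact permutation tests, and centred log2 areas with limma 3.58.1 in R 4.3.3, with a threshold of 0.05 on the adjusted p. The joining of peaks and the limma fit, the latter for blastema minus intact only, were tested on simulated data. The permutation tests were not. Named sites were those in all 6 libraries, those between 57 and 59 Mb of 5q segment 0 held by every group, the up to 5 with the highest median percentile in each separating class, those lacking in 1 group, and the 3 densest windows. Sites named outside this rule were chosen after their values were seen: the cluster near 65 Mb of 5q segment 1, the site at 252437768 and the third site of its arm's second cluster on 5p segment 1, and the site at 57332701 on 5q segment 0. Members and tests were chosen with earlier results of these data known. Alternatives are given in the closing section.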

Additional observations from a re-analysis of the deposited data

How the results depend on the processing

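When the −log10 q had to reach 5, the log2 difference in number of chromosome 5 peaks was −0.25 for systemically activated minus intact, 0.19 for blastema minus intact and −0.44 for systemically activated minus blastema, each turned from the value in the report. The share of the list on chromosome 5 turned to 1.07 percentage points for systemically activated minus intact. At this threshold 12 sites remained, 7 of them in all 6 libraries and all 7 between 57 and 59 Mb, and the sites separating groups numbered 0, 0 and 1. The last was held by the blastema libraries. When each list was reduced to its 248 top peaks, the log2 differences in number were −0.089, 0.086 and −0.18, the sites 51, and those separating groups 2, 2 and 6 (1 systemically activated and 5 blastema in the last).

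Joining peaks up to 500 bp apart gave 3 sites separating blastema from intact, 1 blastema and 2 intact. Leaving out 1 library gave 44 to 195 sites separating systemically activated from intact, 5 to 13 separating blastema from intact and 45 to 199 separating systemically activated from blastema. With a library left out the rule asks for fewer libraries, so these numbers rise by the rule itself. The separating sites numbered 195 without systemically activated 4 and 71 without systemically activated 5 against intact, and 199 and 74 against blastema. Between blastema and intact, more sites were held by intact without blastema 2 (2 against 4), without intact 1 (2 against 11) and without intact 2 (2 against 3). The number of sites was 122 to 273, the lowest without systemically activated 5. For the separating sites of this section no share over all sites is given, so their counts are not read as a trait of chromosome 5.

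The area call for systemically activated minus intact numbered 0 with quantile normalization, 0 without centring and 0 whichever library was left out. With the summit −log10 p in place of area, 3 sites were called for blastema minus intact (9 of all 155) and 1 for systemically activated minus blastema (3 of 155). The following was chosen after seeing the data. A group left with a single library overlaps less easily, so numbers with 1 library left out are raised by the rule itself. Sites with areas that do not overlap numbered 6 without centring for systemically activated minus intact (83 of all 155), 15 to 18 with 1 library left out (119 to 132 of 155; 18 without systemically activated 4), and 11 to 19 for systemically activated minus blastema (111 to 123 of 155; 17 without systemically activated 4 and 19 without systemically activated 5).

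Blastema and intact share the replicate numbers 1 and 2, but no label gives a shared animal or day, so the libraries were not treated as pairs. The correlation of deviations was 0.073 over 155 sites. With 2 pairs and sites that are not independent, it cannot decide whether the libraries were paired. With the replicate block the log2 difference in number was −0.31 (exact sign-flip p = 0.5, the smallest that 2 pairs can give). The difference in share was 2.47 percentage points (exact sign-flip p = 1). With this block limma called 0 of the chromosome 5 sites and 4 of all 155, against 0 of all 155 without it. The share of the list kept its direction in the other settings but not its size: it was −0.81, 0.81 and −1.61 percentage points with lists of equal length, and −5.98 to −1.94, 0.45 to 4.49 and −6.94 to −5.92 with 1 library left out. When the −log10 q had to reach 5 it was 5.08 for blastema minus intact and −4.01 for systemically activated minus blastema. Leaving out unplaced sequences gave −4.34, 2.31 and −6.64. A minimum overlap of 50% kept each count of sites within 1.5 times.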
